A study of Mus musculus with 12 samples.

Results

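Kupffer cells are the resident macrophages of the liver, and 8 genes used to recognise them were followed through Con A-induced hepatitis. The genes are Clec4f, Vsig4, Timd4, Cd5l, Marco, Cd163, Folr2 and Csf1r, and they were found in the expression table by their symbols. All 8 were among the 11289 genes of the table. The livers came from 12 C57BL/6J mice with 4 in each of 3 groups. The control group is labelled only as control, with no agent named, the Con A + PBS group received Con A (concanavalin A, a lectin of jack bean that stimulates T lymphocytes) at 15 mg/kg through the tail vein and PBS 30 min later, and the Con A + hWJ-MSCs group received the same dose of Con A followed 30 min later by human mesenchymal stem cells grown from Wharton's jelly, the soft tissue of the umbilical cord. Livers were taken at 24 h. The labels give 2000000 infused cells and mice of 8 to 10 weeks, and the study's methods give a different cell number and age and say that the animals were male. Whole liver was sequenced, not sorted macrophages, so fewer Kupffer cells and less RNA of a gene per Kupffer cell cannot be told apart. Each value is a whole-number score that had been normalized between mice, and the totals per mouse were between 17649654 and 17657159, so sequencing depth is unknown. Alb, the albumin gene of hepatocytes, stood at 341028, the largest score of the table, in all 12 mice.

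Kupffer cells sit inside the liver sinusoids, where they take particles, microbes, complement-coated material and dying cells out of the portal blood. Their identity is held by transcription factors that include LXR alpha, Id3 and Spi-C, and by signals from the neighbouring endothelial cells, stellate cells and hepatocytes. They depend on the CSF1 receptor for survival. Clec4f encodes a C-type lectin that in mice is nearly restricted to Kupffer cells, Vsig4 a receptor for complement C3 fragments and Timd4 a receptor for phosphatidylserine on apoptotic cells. Cd5l encodes a secreted protein of macrophages, Marco a scavenger receptor for bacteria and particles, and Cd163 the receptor for haptoglobin-haemoglobin complexes. These 3 share the scavenger receptor cysteine-rich domain. Folr2 encodes folate receptor beta, and Csf1r the receptor for CSF1 and IL-34, which monocytes carry as well.

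Positions are those of mm10. The transcripts listed for them span chromosome 6 from 83644542 to 83656187 for Clec4f (minus strand) and from 124304651 to 124330527 for Cd163 (plus strand), chromosome X from 96247203 to 96293438 for Vsig4 (minus strand), chromosome 11 from 46810800 to 46844332 for Timd4 (plus strand), chromosome 3 from 87357881 to 87371074 for Cd5l (plus strand), chromosome 1 from 120474538 to 120505024 for Marco (minus strand) and chromosome 7 from 101839990 to 101845331 for Folr2 (minus strand). RefSeq promoter windows of build GRCm38.p6, taken as the 250 bases before a start, were read for 7 of the 8 genes. Those of the 3 genes that changed most after Con A (Clec4f, Vsig4 and Cd5l) and of the gene that changed least (Marco) are shown, so that sequences next to strongly and weakly changed genes can be compared. They are chr6:83656117-83656366 (minus strand), chrX:96293439-96293688 (minus strand), chr3:87357631-87357880 (plus strand) and chr1:120505025-120505274 (minus strand), each written 5′ to 3′ on the strand of its gene. The RefSeq start of Clec4f lies 71 bases from the start in the expression table, and for Vsig4, Cd5l and Marco both starts are the same base. Capitals mark GAGGAA, the PU box bound by macrophage ETS factors, and AGGTCA, the hexamer of nuclear receptors, on either strand.
Clec4f: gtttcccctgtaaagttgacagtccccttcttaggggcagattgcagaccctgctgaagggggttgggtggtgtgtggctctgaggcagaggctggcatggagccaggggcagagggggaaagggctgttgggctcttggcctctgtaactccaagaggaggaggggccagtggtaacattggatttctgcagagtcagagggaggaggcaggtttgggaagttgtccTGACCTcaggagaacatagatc
Vsig4: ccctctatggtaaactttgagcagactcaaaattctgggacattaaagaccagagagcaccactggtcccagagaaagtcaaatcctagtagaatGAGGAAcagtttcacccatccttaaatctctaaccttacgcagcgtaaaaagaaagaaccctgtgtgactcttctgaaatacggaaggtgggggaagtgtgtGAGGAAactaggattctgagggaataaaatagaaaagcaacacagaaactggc
Cd5l: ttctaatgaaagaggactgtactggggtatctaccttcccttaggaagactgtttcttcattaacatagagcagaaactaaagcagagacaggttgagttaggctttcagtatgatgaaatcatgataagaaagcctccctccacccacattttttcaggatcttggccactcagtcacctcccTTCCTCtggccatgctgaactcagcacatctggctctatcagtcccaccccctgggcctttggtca
Marco: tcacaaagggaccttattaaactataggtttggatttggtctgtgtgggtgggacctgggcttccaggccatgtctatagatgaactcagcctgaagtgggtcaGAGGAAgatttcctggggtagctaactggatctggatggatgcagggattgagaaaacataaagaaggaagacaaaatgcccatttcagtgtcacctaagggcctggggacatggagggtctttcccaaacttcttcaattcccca

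The Vsig4 window held 2 PU boxes, the Cd5l and Marco windows 1 PU box each, and the Clec4f window 1 nuclear receptor hexamer. No marked motif overlapped another. Of 32851 RefSeq windows of this length, 23.3% held a PU box and 14.0% a nuclear receptor hexamer, so each motif is common. The Cd163 and Folr2 windows held neither motif, and the Timd4 window held 1 nuclear receptor hexamer. The motifs are a description of the letters and no measure of binding.

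Con A was followed by far lower levels of Kupffer cell genes at 24 h. In the Con A + PBS group 8 of the 8 genes were called lower than in control livers, by limma with a Benjamini-Hochberg threshold of 0.05 and a change of more than 1.5-fold, where 19.2% of all genes tested were called lower. For 7 of the 8 every Con A + PBS mouse was below every control mouse, which held for 23.4% of all genes. The median log2 fold change was -3.38 for the 8 genes and 0.045 for all 11289. The table was limited to genes that reach a score of 64 in at least 2 mice, and Vsig4, Timd4, Cd163 and Folr2 are in it through the control mice alone, so that those 4 could hardly have been listed without being higher there. Clec4f, Cd5l, Marco and Csf1r would have been listed without the control mice. The summed score of the 8 genes was between 3799 and 6280 in control mice, between 284 and 546 in the Con A + PBS mice and between 295 and 873 in the Con A + hWJ-MSCs mice.

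**Figure D1:**
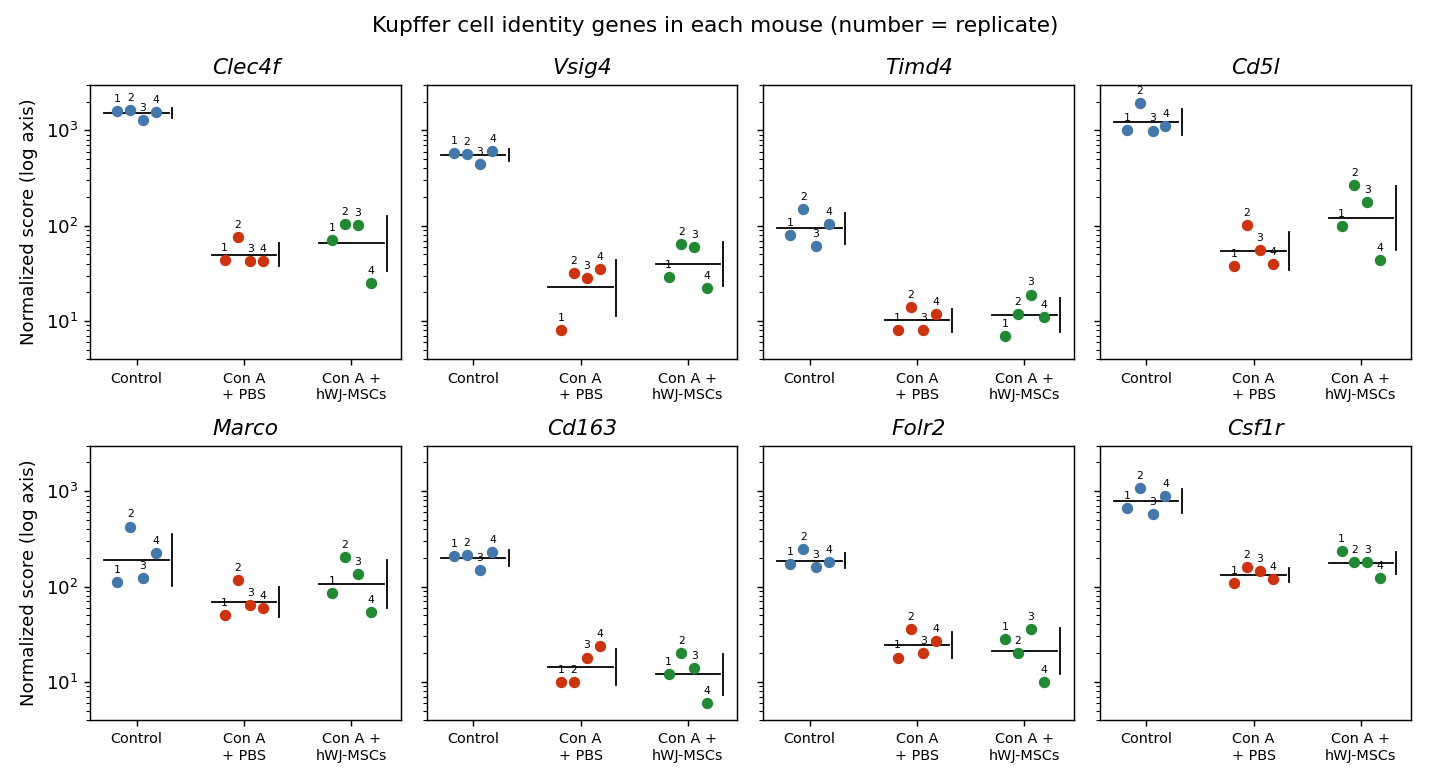
Normalized score (log axis) of each Kupffer cell identity gene in each mouse, by group, with replicate numbers beside the points; the horizontal line is the mean and the vertical line 1 SD on the log2(score + 1) scale, n = 4 mice. Control mice stand apart from both Con A groups for every gene but Marco, whose control values of 112 and 122 lie within the range of the Con A groups.

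Among the receptors for glycans, complement and dying cells, Clec4f showed the largest change. Its scores were 1598, 1646, 1282 and 1578 in the control mice, 44, 76, 43 and 43 in the Con A + PBS mice and 71, 104, 101 and 25 in the Con A + hWJ-MSCs mice. Both Con A groups lay far below control and overlapped with each other. Clec4f fell by 4.90 ± 0.37 (SE) on the log2 scale after Con A, or 29.9-fold (limma, adjusted p = 9.1e-07). Vsig4 had scores of 582, 571, 446 and 612 in control mice, 8, 32, 28 and 35 with Con A + PBS and 29, 65, 60 and 22 with hWJ-MSCs. One Con A + PBS mouse at 8 was well below the other 3, and no Con A mouse reached the control range. The complement receptor gene fell by 4.54 ± 0.44 (SE) on the log2 scale (limma, adjusted p = 5.3e-06). Timd4 scores were 80, 150, 62 and 104 in control livers, 8, 14, 8 and 12 in the Con A + PBS mice and 7, 12, 19 and 11 in the Con A + hWJ-MSCs mice. No Con A mouse reached the lowest control mouse. Timd4 fell by 3.08 ± 0.40 (SE) on the log2 scale (limma, adjusted p = 5.1e-05). At scores this low the added 1 of the log2(score + 1) scale makes the fold change smaller.

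The 3 genes of the cysteine-rich scavenger family did not change alike. Cd5l scores were 1018, 1941, 998 and 1117 in control mice, 38, 103, 56 and 40 in Con A + PBS mice and 100, 268, 178 and 44 in Con A + hWJ-MSCs mice. It fell by 4.46 ± 0.48 (SE) on the log2 scale after Con A (limma, adjusted p = 1.3e-05). Cd163 scores were 208, 215, 150 and 229 in control mice, 10, 10, 18 and 24 with Con A + PBS and 12, 20, 14 and 6 with hWJ-MSCs, so every Con A mouse was below every control mouse. The haptoglobin-haemoglobin receptor gene fell by 3.68 ± 0.38 (SE) on the log2 scale (limma, adjusted p = 9.1e-06). Marco scores were 112, 426, 122 and 226 in control mice, 50, 116, 64 and 60 in Con A + PBS mice and 86, 204, 136 and 54 in Con A + hWJ-MSCs mice. The control mice spread from 112 to 426, and the groups overlapped, since 1 Con A + PBS mouse at 116 exceeded a control mouse at 112. Marco fell by 1.46 ± 0.46 (SE) on the log2 scale (limma, adjusted p = 0.018), and the exact permutation test of the 8 mice gave a two-sided p of 0.0571. Without control mouse 2 its log2 fold change was -1.07 (limma, adjusted p = 0.055) and without Con A + PBS mouse 1 it was -1.31 (limma, adjusted p = 0.051), so its call rested on each of these mice.

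Folr2, the folate receptor gene, had scores of 172, 246, 159 and 182 in control mice, 18, 36, 20 and 27 in Con A + PBS mice and 28, 20, 36 and 10 in Con A + hWJ-MSCs mice. It fell by 2.89 ± 0.35 (SE) on the log2 scale after Con A (limma, adjusted p = 3.3e-05). Csf1r (chromosome 18 of mm10, 61105572 to 61131134, plus strand) marks monocytes and all macrophages, not Kupffer cells alone. It had scores of 672, 1085, 580 and 900 in control mice, 108, 159, 146 and 120 in Con A + PBS mice and 238, 180, 182 and 123 in Con A + hWJ-MSCs mice. All 8 mice given Con A lay below the lowest control mouse. Csf1r fell by 2.57 ± 0.23 (SE) on the log2 scale (limma, adjusted p = 2.8e-06). For the 7 genes other than Marco, the two-sided exact permutation test gave 0.0286, the smallest p that 4 mice against 4 can give, and no mouse left out in turn ended a call. The filter on low scores largely fixed the direction of Vsig4, Timd4, Cd163 and Folr2. Their p-values, here and above, and their stability are therefore given as a description.

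Whether the genes fell by different amounts was tested within mice, by taking the difference of the log2 scores of 2 genes in each liver and comparing it between groups. Of 28 pairs, 17 differed in Con A + PBS versus control at a Benjamini-Hochberg adjusted p of 0.0471 over the 28 (two-sided exact permutation test). All 17 had the smallest exact p that 4 mice against 4 can give, so they pass the threshold only together. The limit on the 4 genes listed through control mice alone holds for their pairs too. Marco differed from each of the 7 other genes, from 1.11 ± 0.31 (SE) log2 units for Marco minus Csf1r to -3.44 ± 0.42 (SE) for Clec4f minus Marco. Clec4f, Vsig4 and Cd5l each fell more than Timd4, Folr2 and Csf1r, from 1.38 ± 0.29 (SE) log2 units for Timd4 minus Cd5l to -2.33 ± 0.21 (SE) for Clec4f minus Csf1r, and Timd4 fell more than Csf1r (-0.51 ± 0.19). Among these 3 no difference passed the test: Clec4f against Vsig4 was -0.36 ± 0.45 (SE) and Vsig4 against Cd5l -0.08 ± 0.47 (SE). Cd163 differed from Marco, by 2.23 ± 0.60 (SE) as Marco minus Cd163, and from no other gene at the threshold. The order by log2 fold change was Clec4f, Vsig4, Cd5l, Cd163, Timd4, Folr2, Csf1r and Marco, and of the 7 neighbours in that order only Csf1r and Marco differed at the threshold.

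**Figure D2:**
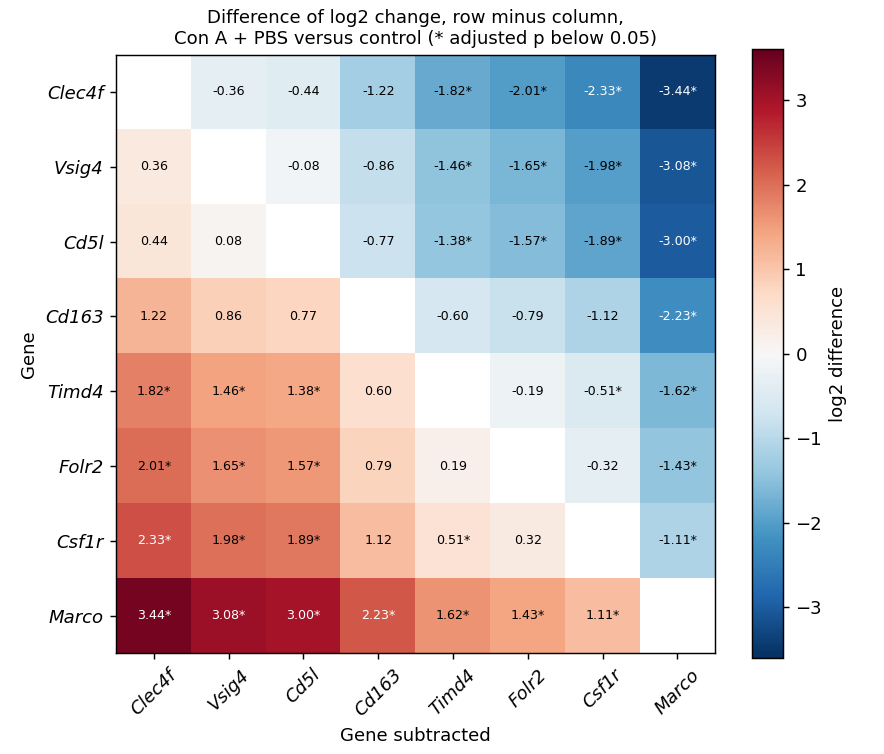
Difference of the log2 change in Con A + PBS versus control for each pair of genes, the gene of the row minus the gene of the column, in log2 units, with a star where the exact permutation test had an adjusted p below 0.05. The Marco row is starred against all 7 other genes, and the block of Clec4f, Vsig4 and Cd5l holds no star.

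No Kupffer cell gene passed the test between livers given hWJ-MSCs and livers given PBS after Con A. Between the hWJ-MSCs and PBS groups 0 of the 8 genes were called by limma, where 8.58% of all genes were called in either direction and 4.20% higher. At an unadjusted p below 0.05 the count was 1, and the exact permutation test called 0. Cd5l was that gene, with a log2 fold change of 1.13 (95% interval 0.09 to 2.17, limma, adjusted p = 0.12). The estimate was above 0 for 6 genes and below 0 for Cd163 and Folr2. For Vsig4 it was 0.79 (95% interval -0.15 to 1.73), for Csf1r 0.42 (-0.07 to 0.90), for Clec4f 0.40 (-0.40 to 1.19) and for Marco 0.63 (-0.38 to 1.63). Timd4, Cd163 and Folr2 had intervals of -0.70 to 1.03, -1.07 to 0.57 and -0.95 to 0.58. Only for Marco did the upper bound exceed the size of the decrease after Con A. In none of the 8 genes were the groups without overlap, which held with higher values for 11.9% of all genes. Of the 28 pairs of genes 0 differed in response at the adjusted threshold, the smallest adjusted p being 0.3 (exact permutation test).

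One mouse weighed on this comparison. Con A + hWJ-MSCs mouse 4 was the lowest of its group for 7 of the 8 genes, at 25 for Clec4f and 44 for Cd5l, below or near the Con A + PBS mice. Con A + hWJ-MSCs mouse 2 was the highest for 5 of the 8. Without mouse 4, limma called 2 genes higher than in Con A + PBS livers, Clec4f with a log2 fold change of 0.85 (adjusted p = 0.028) and Cd5l with 1.61 (adjusted p = 0.027), while Cd163 turned to 0.047 and Folr2 to 0.16. Mouse 4 also had the lowest mean over 14 genes of macrophages in general, 7.24 on the log2(score + 1) scale, where the other 3 mice of the group had 8.06 to 8.34. Taken relative to that mean, a scaling chosen after the data were seen, Csf1r was 0.35 ± 0.11 (SE) log2 units higher with hWJ-MSCs than with PBS (exact permutation p = 0.0286), and the smallest exact permutation p of the other 7 genes was 0.114.

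Compared with control, the livers given hWJ-MSCs were still low in Kupffer cell genes. Against control 7 of the 8 genes were called lower by limma, against 13.1% of all genes, and for the same 7 no mouse overlapped with control, which held for 17.3% of all genes. This comparison uses the same control mice as the first, and the limit on the 4 genes listed through control mice holds here too. Clec4f was lower by a log2 fold change of -4.51 ± 0.37 (SE), Cd163 by -3.93 ± 0.38, Vsig4 by -3.75 ± 0.44 and Cd5l by -3.33 ± 0.48 (limma, adjusted p = 3.0e-06, 1.2e-05, 4.5e-05 and 2.2e-04). Folr2 stood at -3.08 ± 0.35, Timd4 at -2.92 ± 0.40 and Csf1r at -2.15 ± 0.23 (limma, adjusted p = 4.2e-05, 1.5e-04 and 2.3e-05). Marco had a log2 fold change of -0.83 (95% interval -1.84 to 0.18, limma, adjusted p = 0.17) and was not called.

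**Figure D3:**
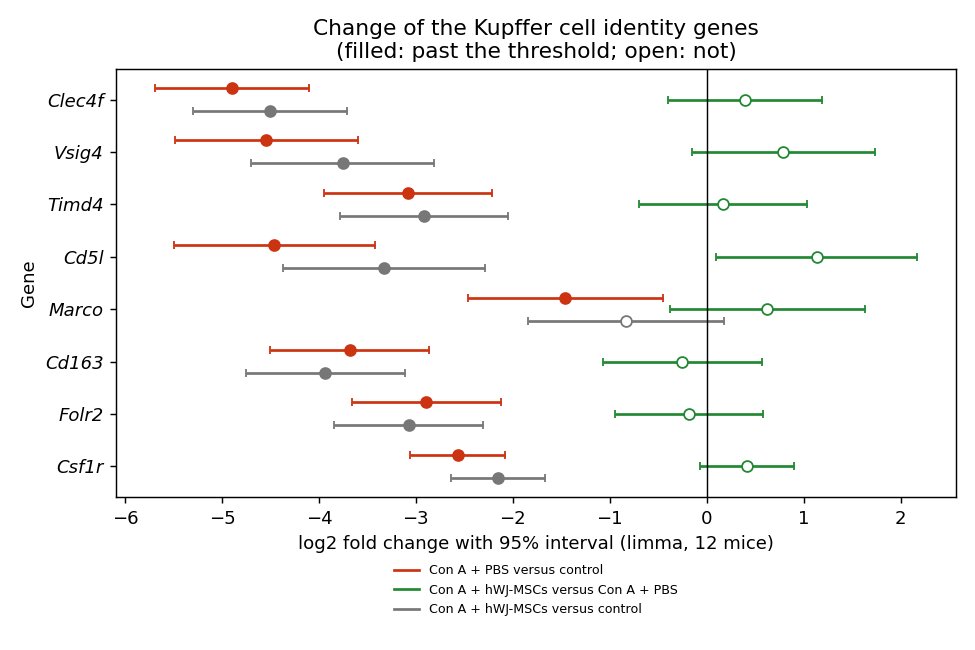
log2 fold change of each gene with its 95% interval from limma in 3 comparisons, filled where past the threshold and open where not. The 8 estimates of Con A + PBS versus control lie between -4.90 and -1.46, and the 8 of hWJ-MSCs versus PBS lie between -0.25 and 1.13 and are all open.

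Genes of macrophages in general were counted next. Of the 15 on that list, which holds Csf1r as well, 6 were called lower and 3 higher in Con A + PBS versus control, beside 19.2% and 19.5% of all genes, so that the higher calls were near the background share, and the median log2 fold change was -0.23. Of the 15, 2 are in the table through control mice alone, and of the other 13 the count called lower was 4. Emr1, the older symbol of Adgre1, which encodes F4/80, is one of the 2, so the filter largely fixed its direction; its scores were 74, 277, 110 and 208 in control mice and 17, 34, 20 and 12 in Con A + PBS mice. Cd68, a lysosomal protein gene of phagocytes, rose by 2.89 ± 0.37 (SE) on the log2 scale (limma, adjusted p = 5.0e-05), from 144, 158, 88 and 108 to 950, 1018, 746 and 932. The mean log2 score of the 14 genes other than Csf1r was 7.88 ± 0.28 (SD, n = 4) for control livers, 7.87 ± 0.20 for Con A + PBS and 7.93 ± 0.48 with hWJ-MSCs. Since that mean, over genes that went both ways, hardly moved after Con A, the differences relative to it stayed close to the unscaled ones, from -1.44 log2 units for Marco to -4.89 for Clec4f.

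Most measured markers of monocytes rose after Con A, where 19.5% of all genes were called higher. Of 11 monocyte markers measured, 10 were called higher and 0 lower in Con A + PBS versus control, with a median log2 fold change of 2.00. Of the 11, 4 are in the table through Con A mice alone, and of the 7 that control mice would have brought in 6 were called higher. The chemokine receptor gene Ccr2, one of the 7, went from 142, 178, 150 and 133 to 242, 257, 246 and 246 (limma, adjusted p = 5.4e-04). Ly6c2, the gene of a surface antigen of inflammatory monocytes, and F13a1, a coagulation factor gene, are among the 4, so their direction was largely fixed by the filter. Ly6c2 scores were 16, 16, 6 and 1 in control mice and 221, 204, 226 and 144 in Con A + PBS mice, and F13a1 scores 4, 4, 8 and 0 and then 89, 56, 80 and 91. Of 9 markers of monocyte-derived macrophages 6 were called higher, with a median of 2.07, but 3 of the 9 are in the table through Con A mice alone, Gpnmb among them, and of the other 6 only 3 were called higher. Gpnmb, a glycoprotein gene of lipid-handling macrophages, was listed at 1, 0, 1 and 0 in control mice and at 160, 220, 174 and 156 in Con A + PBS mice, and the tetraspanin gene Cd63 rose by 3.96 ± 0.13 (limma, adjusted p = 4.9e-09). The 9 neutrophil markers in the table are all there through Con A mice alone, so that the filter on low scores largely fixed their direction, and their 9 higher calls and median of 4.91 are given as a description. S100a8, a calcium-binding protein gene of neutrophils and monocytes, went from 16, 22, 24 and 1 to 588, 614, 411 and 160, while Ngp was listed at 0, 0, 0 and 3 in control mice and 164, 170, 128 and 274 after Con A, and Il1r2 at 0, 0, 4 and 0 and then 105, 94, 86 and 116. With hWJ-MSCs, 0 of the 11 monocyte markers and 0 of the 9 neutrophil markers were called against Con A + PBS, while 2 of the 9 markers of monocyte-derived macrophages were called lower, Gpnmb among them (-1.32 ± 0.37, limma, adjusted p = 0.040), with a median of -0.36. Of all genes, 4.38% were called lower there. The part of these cells in the change of Csf1r and Marco, which they can express, was not tested.

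Markers of sinusoidal endothelial cells were mostly lower after Con A, and 5 of 11 stellate cell and 4 of 10 hepatocyte markers were called lower, where 19.2% of all genes were. In the table through control mice alone are 2 of the endothelial markers (Clec4g and Oit3) and 1 of the stellate cell markers (Colec11), whose direction the filter largely fixed, and without them 7 of 10 endothelial and 4 of 10 stellate cell markers were called lower. Of 12 sinusoidal endothelial markers 9 were called lower and 1 higher after Con A, with a median log2 fold change of -1.75, and their summed scores were 4465 to 6550 in control and 1444 to 2464 in Con A + PBS mice. Clec4g, an endothelial lectin gene, had scores of 812, 608, 503 and 493 in control mice and 9, 16, 3 and 8 in Con A + PBS mice, and the phosphatase gene Ptprb fell by 3.82 ± 0.33 (SE) on the log2 scale (limma, adjusted p = 2.2e-06). The scavenger receptor gene Stab2 had scores of 978, 714, 727 and 830 in control, 458, 496, 508 and 412 with PBS and 681, 696, 761 and 682 with hWJ-MSCs, and was called higher with hWJ-MSCs than with PBS by 0.59 ± 0.12 (limma, adjusted p = 0.020). It was the 1 marker of the 12 called higher there, beside 4.20% of all genes, and 2 were called lower, beside 4.38%, Lyve1 (-0.90 ± 0.19) and Cdh5 (-0.66 ± 0.19), both named after their values were seen (limma, adjusted p = 0.022 and 0.044). No stellate cell marker was called higher after Con A, and their list had a median of -0.54 and summed scores that overlapped, 7472 to 12056 in control and 7576 to 8597 in Con A + PBS mice. Colec11, a collectin gene, had scores of 562, 427, 382 and 490 in control, 14, 12, 11 and 14 with PBS and 20, 76, 35 and 22 with hWJ-MSCs, and was higher with hWJ-MSCs than with PBS by 1.31 ± 0.34 (limma, adjusted p = 0.033). Reln changed by -2.60 ± 0.21 after Con A. The hepatocyte list had a median of -0.41, and the lower markers include Ass1 of the urea cycle (-2.44 ± 0.35) and Cyp2e1 (-2.43 ± 0.39). High scores are tied, and 2 control scores of Cyp2e1 were the same number. The list also holds Alb, at the largest score of 341028 in all 12 mice, which could show no change. The median and counts of this list are limited by such ties. The part of these changes in the decrease of the Kupffer cell genes was not tested.

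**Figure D4:**
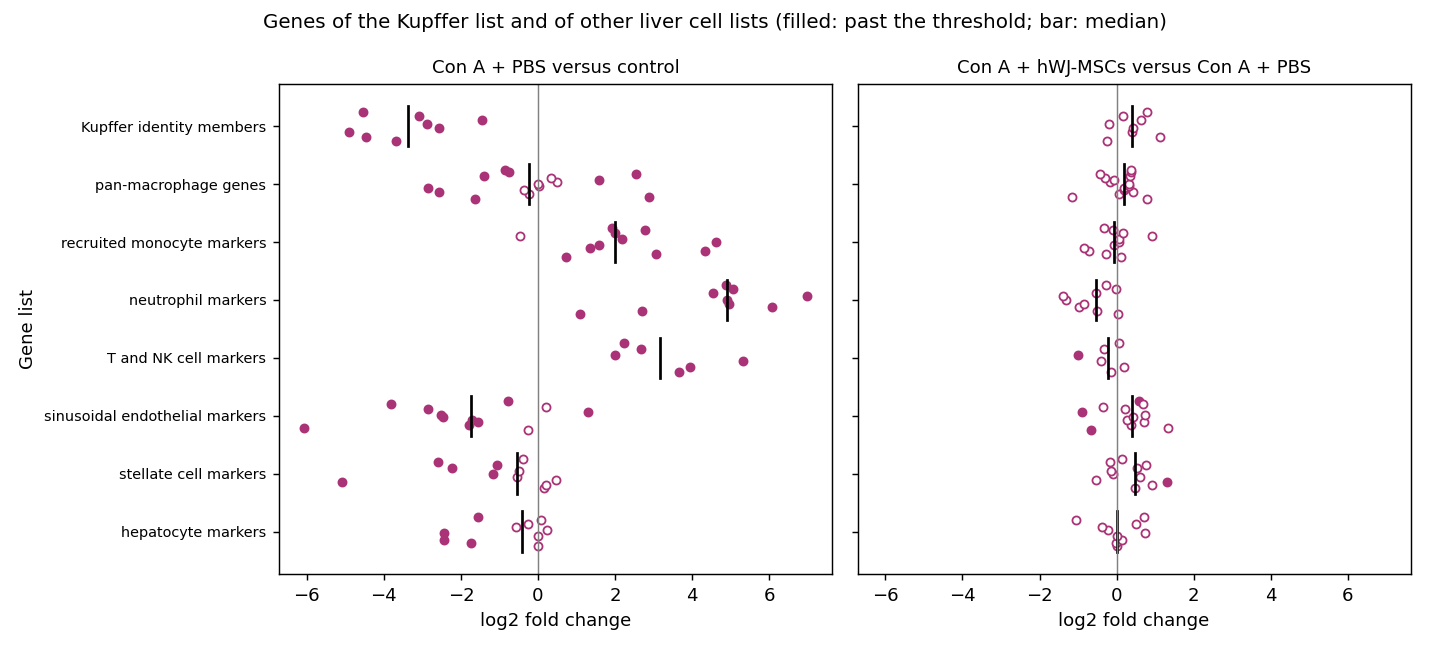
log2 fold change of single genes (points) in 8 gene lists for Con A + PBS versus control (left) and hWJ-MSCs versus PBS after Con A (right), filled where past the limma threshold, with a bar at the median of each list. After Con A the Kupffer genes have a median of -3.38 and the sinusoidal endothelial markers one of -1.75, while monocyte and neutrophil markers, the latter listed through Con A mice alone, have medians of 2.00 and 4.91; on the right the Kupffer median is 0.40 and no Kupffer gene is filled.

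Transcription factors and signals that keep Kupffer cell identity were followed as well. Of 13 factors measured, 4 were called higher, 3 lower and 6 not called in Con A + PBS versus control, with a median log2 fold change of 0.12. Since 19.5% of all genes were called higher and 19.2% lower, the lower calls among the factors, and the 1 higher and 1 lower call among 6 niche signals, were near the background share. Nr1h3, which encodes LXR alpha and is also expressed by hepatocytes, had a log2 fold change of -0.07 ± 0.12 (limma, adjusted p = 0.63), and Spi1, the gene of PU.1, one of -0.15 ± 0.27 (limma, adjusted p = 0.66). Irf8 rose by 2.01 ± 0.25 and Id1 by 1.61 ± 0.31 (limma, adjusted p = 4.0e-05 and 9.3e-04). Id3 went from 646, 722, 1385 and 778 to 1435, 1624, 1256 and 2159 (limma, adjusted p = 0.0046). Nr1h3, Spi1 and Id3 were chosen after their values were seen. Of 6 niche signals in the table, Csf1, the ligand of the Csf1r product, rose by 0.67 ± 0.12 and Gdf2, which encodes BMP9, changed by -1.58 ± 0.27 (limma, adjusted p = 4.6e-04 and 3.3e-04), and 4 were not called. Csf1 scores were 234, 228, 289 and 216 in control, 420, 379, 399 and 334 with PBS and 372, 403, 357 and 323 with hWJ-MSCs, so ligand and receptor RNA went opposite ways after Con A. Another list of 12 genes described in Kupffer cells, several of which other liver cells express, had 5 called lower and 2 higher, with a median of -0.64. It shares Nr1h3, Id3 and Id1 with the factors, and its 2 higher calls are those of Id3 and Id1 again. The complement gene C6 changed by -2.03 ± 0.37, and the transporter gene Slc16a9, at 40, 68, 43 and 76 in control and 10, 8, 14 and 6 in Con A + PBS mice, is in the table through control mice alone. Without Slc16a9, 4 of 11 were called lower.

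Lists of systems and classes related to some of the 8 genes were counted as well. Their counts stand against 19.2% of all genes called lower and 19.5% called higher after Con A. For C1q, complement receptors and other complement genes, a system in which the Vsig4 product takes part, 5 of 8 were called lower and 2 higher after Con A. The median was -1.28, and 1 of the 2 higher ones is in the table through Con A mice alone. The properdin gene Cfp went from 498, 586, 442 and 492 to 74, 114, 90 and 112 and the C1q chain gene C1qa from 996, 1232, 864 and 953 to 228, 415, 245 and 200 (limma, adjusted p = 2.3e-06 and 2.2e-04). Of 15 scavenger and efferocytosis receptors, the functional class of Timd4 and Marco, 7 were called lower and 1 higher, with a median of -0.28. The mannose receptor gene Mrc1 changed by -2.59 ± 0.28 (SE) and the LPS co-receptor gene Cd14 by 6.37 ± 0.24 (limma, adjusted p = 1.2e-05 and 4.9e-09), Cd14 being the only gene of the list called higher and in the table through Con A mice alone. With hWJ-MSCs Cd14 was lower than with PBS by a log2 fold change of -1.33 ± 0.24 (limma, adjusted p = 0.019). For haemoglobin and iron handling, in which the Cd163 product takes part, 4 of 11 genes were called higher and 4 lower, with a median of 0.043. Haptoglobin (Hp) went from 44484, 58067, 72700 and 29649 to the shared largest score of 341028 in every Con A + PBS mouse, while haem oxygenase (Hmox1) rose by 2.04 ± 0.40 (limma, adjusted p = 9.4e-04), so the RNA of the ligand and that of its receptor Cd163 moved in opposite directions. Of 10 LXR target genes, a class to which Cd5l belongs, 7 were called lower and 1 higher, with a median of -1.50. Of the 7, Mylip is in the table through control mice alone, and without it 6 of 9 were called lower. Scd1 (-3.31 ± 0.68) and Srebf1 (-2.42 ± 0.16) changed most, both genes of hepatocyte lipid synthesis as well. Scd1 stood at the shared largest score of 341028 in 3 control mice and at 44548 in control mouse 3, so the size of its change rests on tied values. Apoe, named after its values were seen, was also called lower. It stood at 341028 in every control mouse and at 58038, 58038, 58038 and 147628 with Con A + PBS, so its change rests on tied values too.

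Genes whose scores ran most like those of each Kupffer cell gene over the 12 mice were taken by Pearson's r of log2(score + 1), as a description across mice that share the group difference. For Clec4f they were Serpina1c (r = 0.991), Ugt2b1 (0.990) and Fcna (0.988), for Vsig4 Ces1g (0.987), Vipr1 (0.985) and Cfp (0.981), for Timd4 Pccb (0.978), 1700001C19Rik (0.976) and Arhgap6 (0.976), and for Cd5l Sardh, Nfib and Slc22a30 (each 0.988). For Cd163 they were Inmt (0.984), Ces1d (0.984) and Serpina6 (0.981), for Folr2 Mup3 (0.985), Srebf1 (0.971) and Fcna (0.970), and for Csf1r Mr1 (0.981), Tprkb (0.976) and Hgfac (0.975). Serpina1c stood at the tied largest score of 341028 in all 4 control mice. Marco had the weakest matches, Cenpa (0.940), Sirpa (0.911) and Tmc6 (0.911), and among the 8 genes its r with the others was between 0.654 and 0.845, while the other 7 had r between 0.910 and 0.976 with each other.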

How the data were processed

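Liver RNA of 12 mice was sequenced, with 4 in each group. The authors deposited for each gene and mouse a score, a whole number already normalized between mice (the median was 352 in each) and limited to genes of at least 64 in 2 mice. It is no raw count. Bowtie2 2.2.1, RSEM 1.2.18 and mm10 are named in the submitters' processing notes, and the study's methods name DESeq2 for its own comparisons. Depth is unknown. Columns of no sample numbered 0.

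Here log2(score + 1) was fitted with limma 3.58.1 (R 4.3.3, trended eBayes) for the 12 mice together, over all 11289 genes. The alternatives are those given in the closing section. Two-sided exact permutation tests over 8 mice used scipy 1.17.1, and Python 3.11.15 with matplotlib 3.10.9 made the figures. The fit was tested on simulated data. Of the 8 transcripts, 8 were found in GENCODE M21 and 5 had the same start and end.

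The members and gene lists were chosen with earlier results of these data known. The genes named are the 8, the 2 largest called Con A changes of each list, defining markers (Adgre1, Ccr2, Ly6c2, S100a8, Stab2, Clec4g, Alb), for each of the 8 the 3 genes of highest r, and a few chosen after their values were seen, which the text says. The labels do not say whether the groups were handled together or apart. The p-values measure the spread between these mice, and a difference in handling between groups would not show in it. Same-numbered mice are different animals. The values of 1 listed gene are not reported here.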

Additional observations from a re-analysis of the deposited data

Results flagged for a closer look

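Of 24 sets of 4 mice (8 genes in 3 groups), 2 held a mouse far from the others of its group by Dixon's criterion, and chance gives about 1 such mouse in 20 sets. Clec4f in Con A + PBS mouse 2 was 76, where the other 3 mice were at 43 to 44. Cd5l in control mouse 2 was 1941, where the other 3 were at 998 to 1117. Control mouse 2 was the highest of its group for 6 of the 8 genes, and Con A + PBS mouse 2 was also the highest of its group for 6 of the 8.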

How the results depend on the processing

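The depth behind the scores is unknown, and scores under 64 lie below the level that a gene had to reach to be listed. Of 173 log2 fold changes of single genes under the alternatives in each comparison, 86 had the reported estimate, nearly all by construction (median centring, eBayes without a trend, only the 8 mice compared, a 2-fold limit, the unadjusted p, the block, the filter on mean scores, or a mouse left out of the group not compared). Of the 87 that moved, 85 kept their direction and their side of the threshold after Con A, and the other 2 are those of Marco without control mouse 2 and without Con A + PBS mouse 1. Between the Con A groups 80 of 87 did so, and for Con A + hWJ-MSCs versus control 87. With only genes of a mean score of at least 100, 5 of the 8 genes remained in the test; 5 were called after Con A and 4 in Con A + hWJ-MSCs versus control, the exact test called 4 in each, and 7 of 10 pairs differed in each. With log2(score + 10), 16 of 28 pairs in Con A + hWJ-MSCs versus control had the smallest exact p. Their adjusted p was 0.05, which is at the threshold and not below it. With quantile normalization the same held for 16 of 28 pairs in Con A + PBS versus control. With log2(score + 1), 0 pairs differed in Con A + hWJ-MSCs versus control, where 15 had the smallest exact p and an adjusted p of 0.0533. Between the Con A groups the count of genes called was 1 with the unadjusted p (Cd5l) and 0 to 2 with single mice left out. Estimates that changed sign there were Timd4 at -0.375 with quantile normalization and, with single mice left out, Timd4 (-0.058 to 0.382, lowest without Con A + hWJ-MSCs mouse 3), Cd163 (-0.481 to 0.047) and Folr2 (-0.428 to 0.156), the last pair highest without Con A + hWJ-MSCs mouse 4. The cause was not tested. Leaving single mice out gave 7 to 8 genes called after Con A and 7 in Con A + hWJ-MSCs versus control. Pairs of genes were not tested with a mouse left out, since 3 mice against 4 cannot give an exact p below 0.0571.

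With the replicate number as a block, 8 genes were called after Con A, 1 between the Con A groups (Cd5l, limma, adjusted p = 0.028) and 8 in Con A + hWJ-MSCs versus control, Marco included (limma, adjusted p = 0.043). The numbers belong to different animals, so the mice were not taken as paired. Over all genes, correlations of deviations of same-numbered mice ran from -0.118 to 0.375. Mouse 2 was the highest of its group for 6 of the 8 genes in control, 6 with Con A + PBS and 5 with Con A + hWJ-MSCs. The labels do not say whether a number marks mice handled together.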

Other observations

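Lists with few genes in the table were counted as well. Of 14 T and NK cell markers 6 were in the table, and all 6 are there through Con A mice alone, so that the filter on low scores largely fixed their direction. They were called higher after Con A, where 19.5% of all genes were, with a median log2 fold change of 3.17. With hWJ-MSCs 1 of the 6 was called lower than with PBS, as were 4.38% of all genes. The granzyme genes changed most, Gzmb from 8, 13, 14 and 12 in control mice to 627, 625, 504 and 316 and Gzma from 8, 9, 4 and 14 to 154, 156, 132 and 120. Of 9 dendritic cell markers 3 were in the table and 2 were called lower, where 19.2% of all genes were, Xcr1 by a log2 fold change of -0.75 ± 0.17 (SE) and Clec9a by -0.70 ± 0.17 (limma, adjusted p = 0.0029 and 0.0044). Of 7 B cell markers only Ighm was in the table, with a log2 fold change of -0.92 ± 0.37 (limma, adjusted p = 0.048).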
